A study of Homo sapiens with 15 samples.

Results

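IGF2, the receptors IGF1R and IGF2R, and the binding proteins IGFBP1 to IGFBP7 were followed across 5 conditions of 143B cells, which differ in culture or in shRNA. These 10 genes were chosen by symbol and were found as 10 of the 62700 gene rows in each of the deposited count tables. All of them passed the filter on low counts in both tables. IGF2 is a secreted growth factor that binds IGF1R, a receptor tyrosine kinase that signals through IRS adaptors to PI3K, AKT and mTOR and to the MAPK cascade. IGF2R, also the receptor for mannose 6-phosphate, has no kinase and carries IGF2 to the lysosome for degradation. The IGFBPs bind IGFs outside the cell, where proteases such as PAPPA release the ligand, and bone cells are known to make and store IGF2 and several IGFBPs.

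143B is an established human osteosarcoma cell line. Non-OSCs were 143B cells grown attached in DMEM with fetal bovine serum, and OSCs were 143B cells grown as tumorspheres in DMEM/F12 with B27, EGF and bFGF, so culture format and medium differed together and cannot be told apart. The shCtrl, shPDK1_1 and shPDK1_2 cells had been infected with lentivirus, a control in shCtrl and shRNAs against PDK1 (pyruvate dehydrogenase kinase 1) in the others, and were cultured as spheres; the labels give the genotype of non-OSC, OSC and shCtrl as WT. Each condition had 3 libraries of bulk RNA, numbered 1 to 3, and the sources do not say whether the libraries of a condition came from separate cultures, so the p-values measure the spread between these libraries, which may be technical. Fewer cells of a type and less RNA per cell cannot be told apart in such libraries.

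The 15 libraries held between 7992499 and 11256536 expected counts. Levels are given as CPM, counts scaled to one library size after TMM normalization, and 3 counts, the floor of detection used here, corresponded to between 0.267 and 0.375 CPM. These limits cover counting error only. OSCs and non-OSCs form one table and the shRNA libraries another, so conditions were tested only within a table. PDK1 itself was lower with both shRNAs, at 62% of the shCtrl mean in shPDK1_1 and at 43.7% in shPDK1_2, and it was higher in OSCs than in non-OSCs (log2 fold change 0.59, SE 0.0787). Of 8 osteoblast lineage markers, 5 lay above the floor in every library, among them COL1A1, SPP1 and RUNX2, whereas IBSP had 0 counts in all 15 libraries and SP7 and BGLAP lay near the floor or under it. The summed level of the 8 lay between 571 and 624 CPM in non-OSCs and between 1560 and 1670 CPM in OSCs, where SPP1 (log2 fold change 2.35) and COL1A1 (1.34) were higher and RUNX2 (-1.11) lower. It was between 2340 and 2440 CPM in shCtrl, between 2620 and 2650 CPM in shPDK1_1 and between 3670 and 3820 CPM in shPDK1_2; of the 5 tested, 1 was higher with shPDK1_1 and 2 with shPDK1_2. The summed level of 5 fibroblast markers (DCN, LUM, PDGFRB, COL1A2 and POSTN) lay between 3.25 and 4.48 CPM in OSCs and non-OSCs and between 3.61 and 4.38 CPM in shCtrl, but between 7.58 and 9.93 CPM in shPDK1_1 and between 22.8 and 25.6 CPM in shPDK1_2. Of the 4 tested, 2 were higher with shPDK1_1 and 4 (LUM, PDGFRB, COL1A2 and POSTN) with shPDK1_2. DCN, which was not tested, was at 0.394, 0.496 and 0.162 CPM in shCtrl, shPDK1_1 and shPDK1_2. The part of these shifts in the IGF results was not tested.

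The genes lie on 8 chromosomes of GRCh38, by the GENCODE annotation. IGF2 is on the minus strand of chromosome 11 (2129112-2158391). IGF1R is on the plus strand of chromosome 15 (98648539-98964530) and IGF2R on the plus strand of chromosome 6 (159969082-160113507). IGFBP1 (plus strand, 45888360-45893660) and IGFBP3 (minus strand, 45912245-45921874) face each other with their 3′ ends on chromosome 7, 18584 bases apart. IGFBP2 (plus strand, 216632828-216664436) and IGFBP5 (minus strand, 216672105-216695549) do so on chromosome 2, 7668 bases apart, and no annotated gene lies wholly within either gap. IGFBP4 is on chromosome 17 (40443450-40457725), IGFBP6 on chromosome 12 (53097436-53102345), both on the plus strand, and IGFBP7 on the minus strand of chromosome 4 (57030773-57110385).

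The counts of some members depend on how reads were shared between genes. Of the exon bases of IGF2, 43.2% also belong to the genes INS-IGF2, ENSG00000284779 and ENSG00000240801 on the same strand, and 4.66% lie opposite IGF2-AS. INS-IGF2, a read-through from the insulin gene into IGF2, and ENSG00000284779 had 0 counts in all 15 libraries, and ENSG00000240801 reached at most 20.11 counts, at most 4.08% of the IGF2 count of the same library. Exons of IGFBP7 lie to 18.3% opposite IGFBP7-AS1 and POLR2B, those of IGFBP5 to 7.53% opposite DIRC3-AS1. Whether the libraries keep strand is not given in the sources used here, so reads of these partners cannot be told apart. IGF2R shares 2.53% of its exon bases with CHP1P2, and exons of the other 6 members overlap no other gene.

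RefSeq promoter sequence (GRCh38.p14) was at hand for 7 of the 10 members; IGF2, IGFBP1 and IGFBP7 had no entry. The 250 bases before the start are shown for IGFBP5 and IGFBP4, which were higher in OSCs and with both shRNAs. IGFBP3 was higher in the same comparisons, but its window is not shown. Those of the receptors IGF1R and IGF2R, of which IGF1R moved more, are shown as well. Capitals mark matches on either strand. The motif TATAAA was searched as the common TATA box, and GGGCGG as the binding letters of the GC box. ACGTG served as the core of the hypoxia response element. The letters CACGTG contain this core and read the same on both strands, so such a match counts on each. An AP-1 site spelled TGANTCA and a CRE core spelled TGACGT were searched too. The sequences run 5′ to 3′ on the strand of the gene.

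IGFBP5 (chr2:216695550-216695799, minus strand): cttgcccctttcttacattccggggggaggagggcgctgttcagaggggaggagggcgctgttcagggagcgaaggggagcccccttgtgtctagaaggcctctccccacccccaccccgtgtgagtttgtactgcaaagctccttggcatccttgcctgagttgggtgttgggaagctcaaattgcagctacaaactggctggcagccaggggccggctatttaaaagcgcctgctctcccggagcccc

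IGFBP4 (chr17:40443200-40443449, plus strand): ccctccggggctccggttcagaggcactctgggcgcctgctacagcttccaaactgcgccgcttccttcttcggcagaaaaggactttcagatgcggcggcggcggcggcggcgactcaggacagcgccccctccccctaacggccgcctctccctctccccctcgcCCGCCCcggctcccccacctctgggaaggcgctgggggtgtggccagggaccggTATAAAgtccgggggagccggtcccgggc

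IGF1R (chr15:98648289-98648538, plus strand): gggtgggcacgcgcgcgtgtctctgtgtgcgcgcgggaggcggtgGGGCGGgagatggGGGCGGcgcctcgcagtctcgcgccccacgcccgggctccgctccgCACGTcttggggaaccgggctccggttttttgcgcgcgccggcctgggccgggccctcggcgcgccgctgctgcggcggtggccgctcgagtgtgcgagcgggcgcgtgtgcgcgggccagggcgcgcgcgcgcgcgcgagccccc

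IGF2R (chr6:159968832-159969081, plus strand): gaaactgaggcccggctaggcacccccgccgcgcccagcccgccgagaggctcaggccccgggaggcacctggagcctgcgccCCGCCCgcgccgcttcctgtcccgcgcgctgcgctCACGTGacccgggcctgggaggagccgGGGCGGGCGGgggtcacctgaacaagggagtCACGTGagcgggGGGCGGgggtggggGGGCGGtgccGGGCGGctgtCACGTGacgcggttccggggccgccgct

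The window of IGFBP5 held none of the 5 motifs, while that of IGFBP4 held 1 TATA box and 1 GC box. Of 35116 promoter windows of this length, 10.7% held the TATA box and 42.6% the GC box. IGF1R held 2 GC boxes and 1 hypoxia response core. IGF2R held 6 GC boxes, of which 2 overlap, and 3 copies of CACGTG, counted as 6 matches to the hypoxia response core, a motif found in 18.5% of all windows. No AP-1 site (6.57% of all windows) or CRE core (7.1%) was found in the windows of these 7 members that precede the start of the main transcript. The GC content was 81.2% in IGF1R, 79.2% in IGF2R, 71.6% in IGFBP4 and 61.2% in IGFBP5, beside a median of 58% over all windows. Such matches describe the letters of a window and not a site in use.

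The first comparison was between OSCs and non-OSCs. All 10 members differed between them at an adjusted p under 0.05 (edgeR's quasi-likelihood test, Benjamini-Hochberg adjustment over 14287 genes), 8 of them higher and 2 lower in OSCs, and in each of the 10 the OSC libraries lay clear of the non-OSC libraries. Of all genes tested, 63.9% passed the same threshold, 32.4% higher and 31.5% lower, and 66.9% showed no overlap of the groups. The median log2 fold change of the members was 0.76, beside -0.005 over all genes tested, and the median of its absolute size was 0.87, beside 0.437.

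IGF2, the ligand, was among the least abundant members and rose in OSCs. Its level was 4.62, 5.02 and 6.38 CPM in the non-OSC libraries and 30.6, 32.7 and 33.0 CPM in the OSC libraries. Every OSC library thus lay far above every non-OSC library. The mean went from 5.34 ± 0.921 to 32.1 ± 1.31 CPM (SD, n = 3 each), a ratio of 6.01, with a log2 fold change of 2.59 (SE 0.134, adjusted p = 2.73e-13 by edgeR's quasi-likelihood test). Of the genes tested, 1.8% changed by more in either direction. With INS-IGF2 and the other overlapping genes added to IGF2, an alternative chosen after the data were seen, the log2 fold change was 2.62.

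The receptors both passed the threshold but differed in size of change. IGF1R, the signaling receptor, was at 156.1, 164.1 and 165.0 CPM in non-OSCs and at 261.6, 270.5 and 280.7 CPM in OSCs. The groups were well separated, with a log2 fold change of 0.745 (SE 0.0496, adjusted p = 1.9e-11, edgeR). IGF2R, the clearance receptor, lay between 281.5 and 286.7 CPM in non-OSCs and between 302.4 and 311.6 CPM in OSCs, a log2 fold change of 0.11 (SE 0.0435, adjusted p = 0.0316, edgeR). This call for IGF2R was lost in 4 of the 6 fits that left out 1 library (without non-OSC 2 or 3, or OSC 1 or 2), with an adjusted p of up to 0.0888 from edgeR and log2 fold changes between 0.10 and 0.123 there.

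IGFBP5 and IGFBP3, which can hold IGFs in ternary complexes with the acid-labile subunit, gave the largest rises among the binding proteins. IGFBP5, abundant in bone matrix, was at 138.6, 146.8 and 142.4 CPM in non-OSCs and at 947.9, 936.4 and 975.5 CPM in OSCs. The spread within each group was small beside the gap between them, a ratio of the means of 6.69 and a log2 fold change of 2.74 (SE 0.0441, adjusted p = 8.15e-22, edgeR). IGFBP3, the main carrier of IGFs in blood, was at 253.8, 244.5 and 245.0 CPM in non-OSCs and at 666.2, 670.5 and 648.5 CPM in OSCs. Its log2 fold change was 1.42 (SE 0.042, adjusted p = 2.35e-17, edgeR).

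IGFBP1, IGFBP4 and IGFBP7 rose less. IGFBP1, a binding protein regulated by insulin in liver, went from 8.86 ± 0.599 to 17.3 ± 1.87 CPM (log2 fold change 0.97, SE 0.14, adjusted p = 3.07e-06, edgeR). IGFBP4, mostly an inhibitor of IGF action and the main substrate of PAPPA, went from 200.6 ± 5.41 to 331.7 ± 15.6 CPM (0.73, SE 0.0487). IGFBP7, which binds IGFs weakly, went from 207.3 ± 11.9 to 352.3 ± 14 CPM (0.77, SE 0.0506).

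IGFBP6 and IGFBP2 were the members that fell. IGFBP6, which prefers IGF2 over IGF1, was at 70.5, 77.1 and 83.6 CPM in non-OSCs and at 23.5, 25.4 and 18.6 CPM in OSCs. The OSC mean was 29.2% of the non-OSC mean (log2 fold change -1.77, SE 0.0997, adjusted p = 1.17e-12, edgeR). IGFBP2, often found in fetal tissue and tumors, was at 87.5, 104.5 and 94.9 CPM in non-OSCs and at 68.7, 79.6 and 82.0 CPM in OSCs. The groups were closer here, with a log2 fold change of -0.31 (SE 0.076, adjusted p = 0.0011, edgeR), so the neighbors IGFBP2 and IGFBP5 changed in opposite directions and the neighbors IGFBP1 and IGFBP3 in the same direction.

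**Figure D1:**
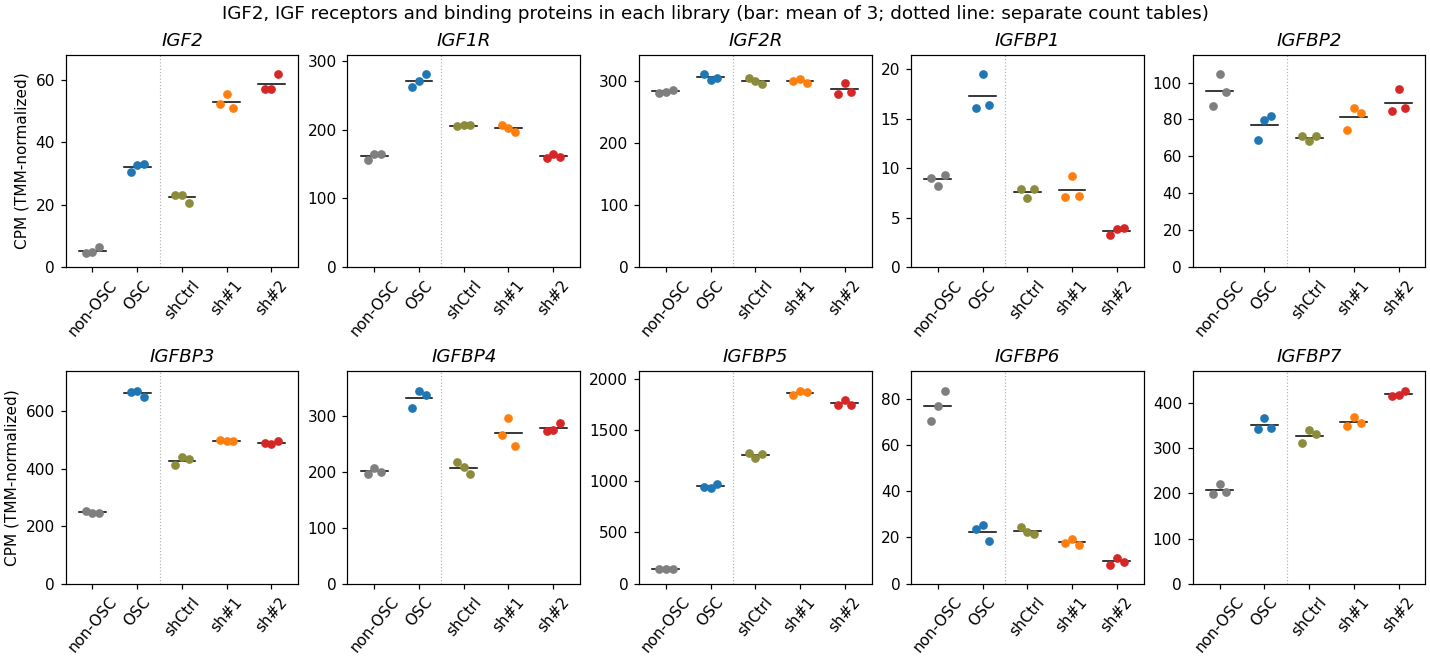
Level of the 10 members in each library in CPM (vertical axis, linear, from 0; 3 points per condition, bar at their mean), with sh#1 for shPDK1_1 and sh#2 for shPDK1_2. IGF2 rises from a mean of 5.34 to 32.1 CPM between non-OSC and OSC and from 22.4 CPM in shCtrl to 53.0 and 58.7 CPM with the shRNAs, while IGFBP6 falls from 77.1 to 22.5 CPM and from 22.8 CPM in shCtrl to 9.65 CPM in shPDK1_2 (18.0 CPM in shPDK1_1, which did not pass the threshold).

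PDK1 knockdown was then compared with shCtrl, to ask how the members differ when PDK1 is lowered in spheres. Both comparisons share the shCtrl libraries, so the values with each shRNA are given side by side and their likeness is not counted as evidence. With shPDK1_1, 4 of the 10 members passed the threshold, all of them higher, beside 3.06% of the 14574 genes tested (1.62% higher and 1.44% lower). With shPDK1_2, 9 of 10 passed it, 6 higher and 3 lower, beside 26.2% (12% higher and 14.2% lower). The groups did not overlap in 7 members with shPDK1_1, beside 19.3% of all genes, and in 9 with shPDK1_2, beside 39.5%. Median log2 fold changes of the members were 0.17 and 0.27, beside 0.002 and 0.008 over all genes tested.

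IGF2 rose with both shRNAs. Its level was 23.2, 23.3 and 20.7 CPM in shCtrl, 52.3, 55.7 and 51.1 CPM in shPDK1_1, and 57.1, 57.1 and 61.9 CPM in shPDK1_2. All 6 knockdown libraries lay above the shCtrl libraries by more than the spread within any condition. The log2 fold change was 1.24 with shPDK1_1 (SE 0.0815, adjusted p = 1.34e-10, edgeR) and 1.39 with shPDK1_2 (SE 0.0803, adjusted p = 8.5e-13, edgeR), and 0.508% and 1.26% of the genes tested changed by more. Between the shRNAs, the IGF2 difference was 0.15 on the log2 scale (95% confidence interval 0.00 to 0.293, adjusted p = 0.176, edgeR), which did not pass the threshold.

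IGF1R separated the shRNAs. It was at 205.5, 206.5 and 206.3 CPM in shCtrl, at 206.2, 202.5 and 196.9 CPM in shPDK1_1 and at 159.3, 164.8 and 160.3 CPM in shPDK1_2. The shPDK1_1 libraries overlapped with shCtrl, and the shPDK1_2 libraries lay below both. The log2 fold change against shCtrl was -0.031 with shPDK1_1 (95% confidence interval -0.119 to 0.057, adjusted p = 0.817, edgeR) and -0.35 with shPDK1_2 (SE 0.0431, adjusted p = 5.66e-07, edgeR). IGF2R lay between 280.1 and 305.6 CPM in all 9 libraries, with log2 fold changes of -0.003 (interval -0.085 to 0.078) and -0.069 (interval -0.151 to 0.012), neither past the threshold.

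IGFBP5 and IGFBP4 rose with both shRNAs, as did IGFBP3. IGFBP5 was at 1274, 1227 and 1270 CPM in shCtrl, at 1837, 1884 and 1866 CPM in shPDK1_1 and at 1745, 1796 and 1744 CPM in shPDK1_2. The knockdown libraries were clear of shCtrl, with log2 fold changes of 0.57 (SE 0.0305, adjusted p = 1.7e-12, edgeR) and 0.49 (SE 0.0305, adjusted p = 3.85e-12, edgeR). IGFBP4 was at 216.2, 208.8 and 195.2 CPM in shCtrl, at 265.6, 295.8 and 246.2 CPM in shPDK1_1 and at 273.2, 274.0 and 285.8 CPM in shPDK1_2. Groups did not overlap for IGFBP4 either, although shPDK1_1 was spread widely; the log2 fold changes were 0.38 (SE 0.054) and 0.42 (SE 0.0537). IGFBP3 changed by less, 0.22 (SE 0.0366, adjusted p = 0.000716, edgeR) and 0.19 (SE 0.0366, adjusted p = 0.000225, edgeR), from 427.8 ± 14.6 CPM in shCtrl to 496.7 ± 2.74 and 489.1 ± 6.2 CPM.

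IGFBP2 and IGFBP7 were higher with shPDK1_2, while their values with shPDK1_1 did not pass the threshold. The difference between the shRNAs passed it for IGFBP7 and not for IGFBP2. IGFBP7 was at 313.0, 339.8 and 331.0 CPM in shCtrl, at 349.1, 370.6 and 357.1 CPM in shPDK1_1 and at 416.6, 418.9 and 428.1 CPM in shPDK1_2. The 3 conditions formed 3 separate levels, with log2 fold changes against shCtrl of 0.13 (SE 0.0404, adjusted p = 0.083, edgeR) and 0.36 (SE 0.0401, adjusted p = 1.19e-07, edgeR). With the replicate number as a block, the IGFBP7 value with shPDK1_1 passed the threshold (adjusted p = 0.0497, edgeR). IGFBP2 went from 70.0 ± 1.64 CPM in shCtrl to 81.4 ± 6.32 and 89.0 ± 6.38 CPM (log2 fold changes 0.22, adjusted p = 0.0738, and 0.35, adjusted p = 0.000244, edgeR). The IGFBP2 value with shPDK1_1 passed the threshold without a filter on low counts (adjusted p = 0.0377, edgeR) and without shPDK1_1 replicate 1 (adjusted p = 0.0272, edgeR).

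IGFBP6 and IGFBP1 fell with shPDK1_2. IGFBP6 was at 24.6, 22.3 and 21.3 CPM in shCtrl, at 17.8, 19.4 and 16.9 CPM in shPDK1_1 and at 8.09, 11.3 and 9.57 CPM in shPDK1_2. Each condition lay below the one before without overlap, but only shPDK1_2 passed the threshold, at 42.4% of the shCtrl mean (log2 fold change -1.24, SE 0.125, adjusted p = 2.5e-08, edgeR); with shPDK1_1 it was -0.34 (SE 0.116, adjusted p = 0.126, edgeR). IGFBP1, the least abundant binding protein, was at 7.88, 7.01 and 7.94 CPM in shCtrl, at 7.08, 9.20 and 7.22 CPM in shPDK1_1 and at 3.25, 3.84 and 3.95 CPM in shPDK1_2. Libraries of shCtrl and shPDK1_1 overlapped, with a log2 fold change of 0.045 whose interval, -0.323 to 0.413, is wide at counts this low. In shPDK1_2 IGFBP1 was at 48.4% of shCtrl (log2 fold change -1.05, SE 0.196, adjusted p = 0.000206, edgeR).

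The difference between the shRNAs was tested directly in the same fit. Of the 10 members, 4 differed between shPDK1_2 and shPDK1_1, 1 higher and 3 lower in shPDK1_2, beside 16.3% of the genes tested (6.5% higher and 9.78% lower). The shRNA groups did not overlap in 6 members, beside 30.7% of all genes. IGF1R (log2 fold change -0.32, SE 0.043), IGFBP1 (-1.09, SE 0.194) and IGFBP6 (-0.90, SE 0.128) were lower and IGFBP7 (0.23, SE 0.0398) was higher in shPDK1_2, the shRNA with less PDK1 left. IGFBP5 was at 94.6% of its shPDK1_1 level (log2 fold change -0.08, adjusted p = 0.0738, edgeR), a difference that passed the threshold with DESeq2 (adjusted p = 0.0387). For IGFBP3 and IGFBP4 the differences of -0.022 (95% confidence interval -0.097 to 0.052) and 0.046 (-0.063 to 0.154) did not pass it. Marker lists also differed between the shRNAs. Of the fibroblast markers, 4 of 4 tested were higher in shPDK1_2 than in shPDK1_1, while DCN, near the floor and not tested, went from 0.496 to 0.162 CPM. Of the osteoblast lineage markers, 2 of 5 tested were higher and 0 lower. The part of these marker shifts in the differences of the members was not tested.

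Set beside the change between OSCs and non-OSCs, which comes from other libraries, the members fall into several patterns. IGF2, IGFBP3, IGFBP4 and IGFBP5 were higher in OSCs than in non-OSCs and higher with both shRNAs than in shCtrl. IGFBP7 was higher in OSCs and with shPDK1_2. IGFBP6 was lower in OSCs and lower with shPDK1_2. IGF1R and IGFBP1 were higher in OSCs but lower with shPDK1_2, and IGFBP2 was lower in OSCs but higher with shPDK1_2. IGF2R changed least in size among the 10 in OSCs and passed no threshold with either shRNA.

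**Figure D2:**
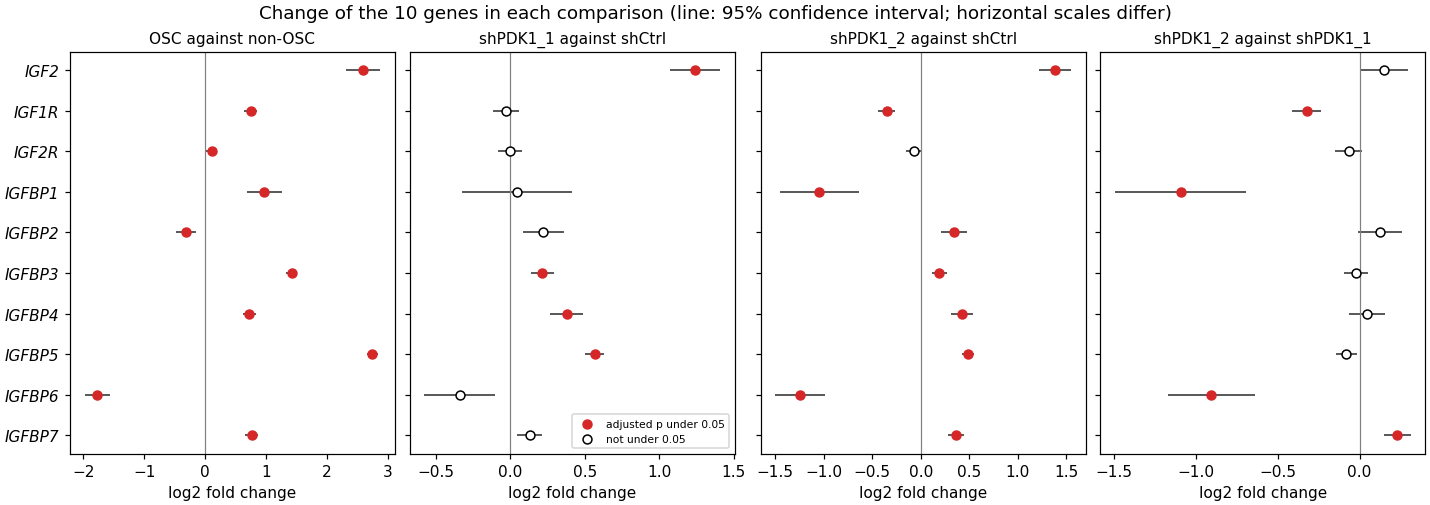
Log2 fold change of each member (points; red where the adjusted p was under 0.05) with its 95% confidence interval (lines), in 4 panels with different horizontal scales. All 10 points are red for OSC against non-OSC, 4 for shPDK1_1 against shCtrl, 9 for shPDK1_2 against shCtrl and 4 for shPDK1_2 against shPDK1_1, where IGF1R, IGFBP1 and IGFBP6 lie left of 0.

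Levels were compared between genes as CPM per kilobase of merged exons. In non-OSCs the order was IGFBP7 (107.4), IGFBP4 (90.99), IGFBP6 (57.3), IGFBP3 (54.2), IGFBP5 (22.1), IGFBP2 (20.2), IGF2R (12.6), IGF1R (11.6), IGFBP1 (5.40) and IGF2 (0.747); IGFBP6 and IGFBP3 changed places between libraries. IGFBP7 also came first in OSCs, at 182.5 CPM per kilobase, where IGFBP4, IGFBP5 and IGFBP3 (150.4, 147.4 and 144.8) changed places between libraries. IGFBP5 came first in shCtrl, shPDK1_1 and shPDK1_2 (194.4, 288 and 272.4 CPM per kilobase), followed by IGFBP7. With the longest transcript as length in place of the merged exons, IGFBP5 came second in shCtrl and in shPDK1_2. IGF2 was the last of the 10 in non-OSCs, OSCs and shCtrl, ninth in shPDK1_1 and eighth on average in shPDK1_2, where it changed places with IGFBP6 between libraries.

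The summed level of the 7 binding proteins followed from these changes. It was 357.5 ± 11.8 CPM per kilobase in non-OSCs and 668.6 ± 16.1 in OSCs, and 588 ± 3.4 in shCtrl, 740 ± 21 in shPDK1_1 and 751.8 ± 8.55 in shPDK1_2 (SD, n = 3 each). Relative to IGF2 itself the sum was 487 ± 73 times as high in non-OSCs and 149 ± 4.6 times in OSCs. The same ratio was 188 ± 12 in shCtrl, 99.9 ± 2 in shPDK1_1 and 91.7 ± 3.7 in shPDK1_2. In each case IGF2 transcripts thus rose by a larger factor than the sum of binding protein transcripts. These are RNA ratios over one choice of gene length, and no test was run on them.

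The makeup of the sum differed between OSCs and non-OSCs mostly in IGFBP5 and IGFBP6. IGFBP5 made up 6.17% of it in non-OSCs and 22.1% in OSCs, and 33.1%, 38.9% and 36.2% in shCtrl, shPDK1_1 and shPDK1_2. IGFBP6 made up 16% in non-OSCs and 2.5% in OSCs, and 2.88%, 1.81% and 0.953% in the shRNA conditions. The share of IGFBP7 lay between 25.1% and 30% in the means of the 5 conditions, and IGFBP1 and IGFBP2 together stayed a small part of the sum in each of them.

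**Figure D3:**
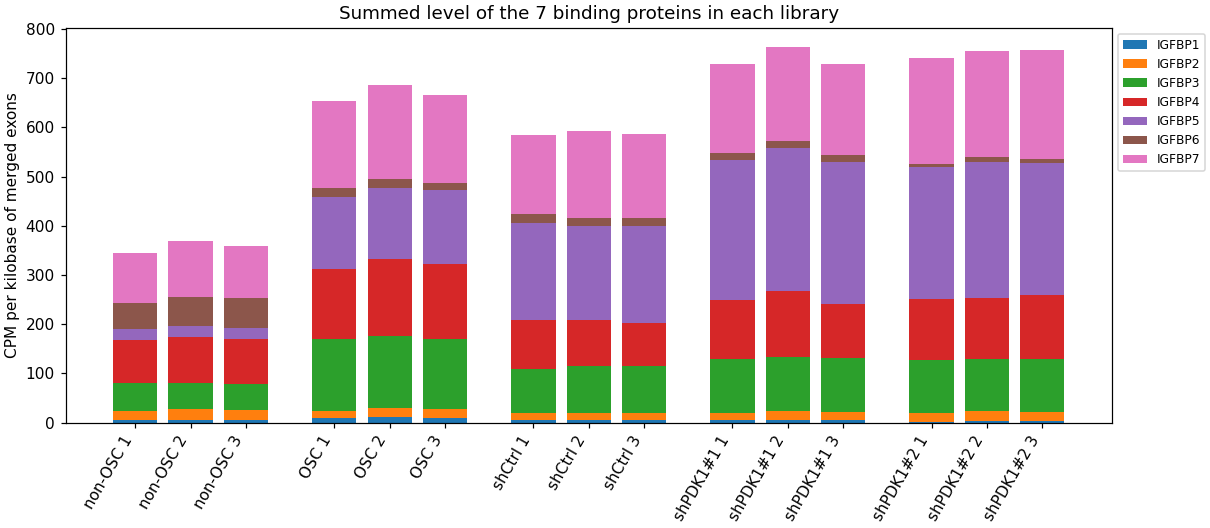
Summed level of the 7 binding proteins in each library (stacked bars from 0, in CPM per kilobase of merged exons; one color per gene). The bars reach means of 357.5 in non-OSC, 668.6 in OSC, 588 in shCtrl, 740 in shPDK1_1 and 751.8 in shPDK1_2, and the IGFBP5 segment makes up 6.17% in non-OSC against 22.1% in OSC.

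The genes whose pattern was most like a member were found by Pearson's r of log2 CPM over the 15 libraries, centered within each table, among 14047 genes. The 15 points fall into 5 conditions, so r describes likeness of the condition means more than anything else. For IGF2 they were SLITRK6 (0.986), IGFBP4 (0.978) and PYGL (0.978), a glycogen phosphorylase. SLITRK6 lay near the floor in non-OSCs, at 0.283 ± 0.0787 CPM, and was low in the other conditions, up to 5.01 ± 0.756 CPM in shPDK1_2. PYGL went from 193.7 ± 2.38 CPM in non-OSCs to 366.2 ± 10.8 in OSCs. In the shRNA libraries PYGL went from 222 ± 7.25 in shCtrl to 270.5 ± 12 and 282.8 ± 6.01 with the shRNAs. For IGF1R the most alike were RHOB (0.994), a small GTPase, HELZ2 (0.993) and DNTTIP1 (0.993). RHOB went from 89.4 ± 5.19 CPM in non-OSCs to 575.9 ± 26.9 in OSCs, and from 397.4 ± 5.08 in shCtrl to 325.9 ± 16.9 and 159.1 ± 6.63 with the shRNAs. IGF2R was matched less closely, by TNFAIP1 (0.944), FRMD5 (0.943) and PRKCD (0.937). Among the members, r was 0.92 for IGF2 with IGFBP3, 0.94 with IGFBP5 and with IGFBP7, and -0.9 with IGFBP6. With the others it was weaker, at 0.61 with IGF1R, 0.47 with IGF2R, 0.31 with IGFBP1 and -0.18 with IGFBP2. IGF1R and IGF2R had an r of 0.89 with each other.

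The rest of the pathway was read from a list of 56 other genes grouped by role. IGF1, INS, INS-IGF2, IRS4 and KCNQ1 had 0 counts in all 15 libraries, which allows up to 3 counts in each, and IGFALS, the acid-labile subunit, had at most 8 counts. IGF2 was the one ligand detected among IGF1, IGF2 and insulin. Of 46 list genes tested, 38 (82.6%) differed between OSCs and non-OSCs, 22 higher and 16 lower, beside the 63.9% of all genes. With shPDK1_1, 3 of 45 (6.67%) passed the threshold, 2 higher and 1 lower, beside 3.06% of all genes, and with shPDK1_2, 17 of 45 (37.8%), 4 higher and 13 lower, beside 26.2%. The median log2 fold changes of the list were 0.115, -0.017 and -0.067.

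Proteases that cut IGFBPs, and their inhibitors, held the largest changes of the list in OSCs and with shPDK1_1; with shPDK1_2 the largest was E2F3. STC1, a stanniocalcin that inhibits PAPPA, was at 60.3 ± 3.3 CPM in non-OSCs and 700.1 ± 27.5 CPM in OSCs (log2 fold change 3.535, SE 0.0538). With the shRNAs STC1 went from 269 ± 2 CPM in shCtrl up to 311.9 ± 3.47 CPM in shPDK1_1 (0.21, adjusted p = 0.00318, edgeR) and down to 182.8 ± 9.12 CPM in shPDK1_2 (-0.56, adjusted p = 2.03e-10, edgeR), and the difference between the shRNAs was -0.77 (adjusted p = 6.31e-13, edgeR). STC2, also an inhibitor of PAPPA, rose in all 3 comparisons, by 0.34, 0.73 and 0.62 on the log2 scale. PAPPA, which cuts IGFBP4, was lower in OSCs (-0.35) and with shPDK1_2 (-0.91, SE 0.106), while its value with shPDK1_1, 26.7 ± 1.52 CPM beside 27.5 ± 1.25 in shCtrl, did not pass the threshold. HTRA1, a protease of IGFBP5 among other substrates, rose in OSCs (1.75, SE 0.0831) and fell with shPDK1_2 (-0.49, SE 0.0674). PAPPA2, which cuts IGFBP3 and IGFBP5, was low, at 4.24 ± 0.493 CPM in non-OSCs and 0.769 ± 0.388 CPM in OSCs (log2 fold change -2.40, SE 0.372).

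Downstream of IGF1R, the adaptors moved in both directions in OSCs. Of 8 tested, 75% passed the threshold, beside 63.9% of all genes (32.4% higher and 31.5% lower). Of the 8, 4 were higher and 2 lower. IRS2 rose (1.63, SE 0.0886) and IRS1 fell (-0.84, SE 0.0593), both of them substrates of the receptor. GRB14, an inhibitory adaptor near the floor, fell (-1.74, SE 0.366). With shPDK1_1, 0 of the 8 adaptors passed the threshold in edgeR's test, beside 3.06% of all genes. Of the 8, 2 had an unadjusted p under 0.05, and DESeq2 called 1. With shPDK1_2 IRS1 (-0.47, SE 0.0665) and GRB10 (-0.29, SE 0.0349) were lower, 25% of the adaptors beside 26.2% of all genes. Of the 17 genes of PI3K, AKT and mTOR signaling, 70.6% passed the threshold in OSCs, beside the same 63.9% of all genes. They were 8 higher and 4 lower, among them PIK3R3, a regulatory subunit of PI3K (1.34, SE 0.175). FOXO3, a transcription factor held back by AKT, was higher (0.98, SE 0.0617), and MTOR was lower (-0.83, SE 0.0531). With shPDK1_2, 41.2% of the 17 passed the threshold, beside 26.2% of all genes (12% higher and 14.2% lower). Of the 17, 2 were higher and 5 lower, with FOXO1 (0.55, SE 0.116) and PIK3CA (-0.425, SE 0.0731) as the largest in each direction. The other higher gene was MTOR (0.127, adjusted p = 0.0378, edgeR), which did not pass the threshold in 9 of 12 other settings, DESeq2 and each fit without 1 library among them (adjusted p from 0.0301 to 0.15 over the 12). FOXO1 shares 22.7% and PIK3R3 17.5% of its exon bases with another gene on its strand. Another gene lies opposite 19.8% of the exon bases of PIK3CA, 21.1% of PAPPA, 30.9% of M6PR and 17.8% of IGF2BP3.

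Genes known to act on IGF2 RNA or to lie near IGF2 moved in both directions. All 4 proteins listed that bind IGF2 mRNA passed the threshold in OSCs, beside 63.9% of all genes. Of them, 1 was higher and 3 were lower, led by IGF2BP2 (-1.115, SE 0.0616). The higher one, IGF2BP3 (0.20), lost the threshold with DESeq2 (adjusted p = 0.0585) and without non-OSC replicate 3, OSC replicate 2 or OSC replicate 3. With each shRNA, 0 of these 4 passed the threshold in edgeR's test, beside 3.06% of all genes with shPDK1_1 and 26.2% with shPDK1_2. Of the 4, 0 had an unadjusted p under 0.05 with either shRNA, and DESeq2 called 0. Among transcription regulators of IGF2, HMGA2 rose in OSCs (1.37, SE 0.0481) and fell with shPDK1_2 (-0.33, SE 0.0421). E2F3 was lower in OSCs (-0.34, SE 0.0664), with shPDK1_1 (-0.52, SE 0.077) and with shPDK1_2 (-1.04, SE 0.08). Of 4 imprinted neighbors of IGF2 tested, 75% passed the threshold in OSCs, beside 63.9% of all genes. Of the 4, 2 were higher, CDKN1C (1.45, SE 0.178) among them, and 1, PHLDA2, was lower (-0.35, SE 0.0817). With shPDK1_2, 25% of them passed it, beside 26.2% of all genes, and this was PHLDA2, again lower (-0.29). H19, which shares an enhancer region with IGF2, had at most 2 counts in any library. Of the carriers and receptors, IGFBPL1 fell in OSCs (-1.39, SE 0.176), TMEM219, a receptor for IGFBP3, rose (0.525, SE 0.097), and M6PR, the smaller mannose 6-phosphate receptor, fell in OSCs (-0.48, SE 0.0603).

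**Figure D4:**
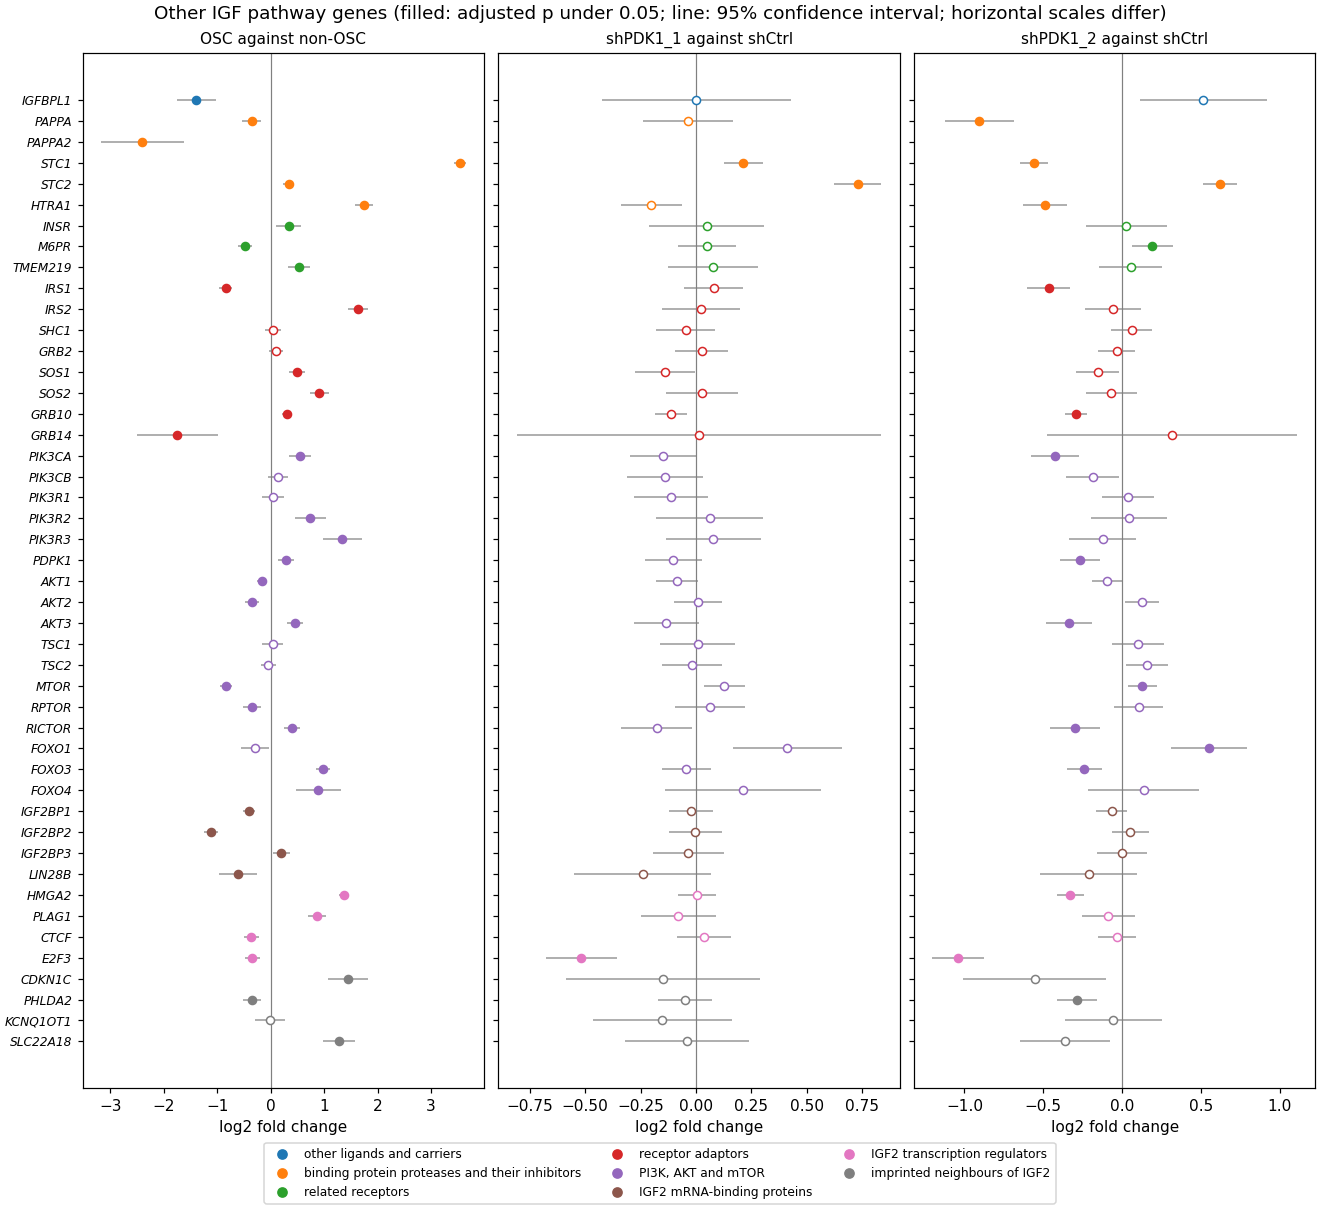
Log2 fold change of the other IGF pathway genes tested (points colored by role and filled where the adjusted p was under 0.05) with 95% confidence intervals, in 3 panels with different horizontal scales. For OSC against non-OSC 38 of 46 points are filled, with STC1 farthest to the right, beside 3 of 45 for shPDK1_1 and 17 of 45 for shPDK1_2, of which 13 lie left of 0.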

How the data were processed

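RNA from 15 libraries of 143B cells, 3 for each of 5 conditions, was sequenced as paired-end reads. Per the submitters' processing notes the tools were Trimmomatic 0.39, FastQC 0.12.1, STAR 2.7.11a and RSEM 1.3.3 with GRCh38.p14. The authors deposited RSEM's expected counts per gene, not normalized, in 2 tables; the annotation is not given in the sources used here, and all identifiers were found in GENCODE 44. RSEM divides reads that fit several genes, and 6.85% and 6.92% of the values were not whole. Columns of the culture table are named by culture format (2D or 3D), words the titles do not hold. Their match to non-OSC and OSC was inferred from the study's attached and sphere cultures, and the direction of every OSC comparison rests on it. 0 columns stayed unmapped.

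Expected counts were rounded and tested with R 4.3.3 and edgeR 4.0.16 with its quasi-likelihood test, after TMM normalization and filterByExpr on the conditions. OSCs were compared with non-OSCs over 14287 genes, and the 9 shRNA libraries in one fit over 14574 genes. P-values were adjusted by Benjamini-Hochberg over all genes tested, with a threshold of 0.05, and the standard error is the log2 fold change divided by the square root of F. CPM use TMM-normalized library sizes, and log2 CPM a prior count of 2. Pairs of replicates had a chi-square of 1.96 to 3.56 per degree of freedom, above counting noise, so none was merged. The tests were first checked on simulated counts. Plots were made with Python 3.11.15 and matplotlib 3.10.9.

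The members, lists, tests and alternatives were chosen with earlier results of these data known. The genes named are the 10 members, PDK1, the 3 genes most like IGF2, IGF1R and IGF2R, and from the other pathway list the 3 largest changes past the threshold in each comparison against a control and at least 1 per role; IGFALS and H19 were chosen after their values were seen. Of the pathway list, 1 gene is not reported here and enters no count of it. Marker lists of leukocytes (4 genes), endothelial cells (3) and epithelial cells (3) summed to at most 4.54 CPM in any library. The alternatives were DESeq2 1.42.0, library size alone, no filter, a minimum of 10 counts per library, the replicate number as a block, a fit of the 2 compared groups alone, each library left out, INS-IGF2 added to IGF2 and the longest transcript as length.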

Additional observations from a re-analysis of the deposited data

Results flagged for a closer look

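The change against shCtrl differed between the shRNAs for 4 of the 10 members, by the test of shPDK1_2 against shPDK1_1 in the same edgeR fit. The log2 difference was -0.32 for IGF1R (adjusted p = 4.84e-06), -1.09 for IGFBP1 (adjusted p = 0.000203), -0.90 for IGFBP6 (adjusted p = 1.03e-05) and 0.23 for IGFBP7 (adjusted p = 0.000137). In each of the 4 genes the 3 libraries of one shRNA did not overlap with the 3 of the other. The 4 were picked by the test on these same libraries, so this adds no support. Over all 10 members the groups did not overlap in 6, beside 30.7% of all genes tested. The shRNAs also differ in how much PDK1 they leave (62% and 43.7% of shCtrl) and in target sequence, which cannot be told apart here.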

How the results depend on the processing

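Over 112 gene and comparison pairs (the 10 members and PDK1 in 4 comparisons, and other pathway genes where they passed the threshold), 1301 values were recomputed, of which 1267 kept their direction and side of the threshold. Of the 25 that lost the threshold, the 4 IGF2R fits given for OSCs were the only ones of members, and the others were of INSR, IGF2BP3, M6PR, MTOR, FOXO3, PHLDA2 and PIK3CA; those that gained it were IGFBP2 with shPDK1_1 in 2 fits, IGFBP5 between the shRNAs with DESeq2, and IGFBP7 with shPDK1_1 under the replicate block (adjusted p = 0.0497, edgeR). Changes of sign occurred in 5 values that did not pass the threshold. These were IGF2R with shPDK1_1 without shCtrl replicate 1 (0.007) and without shPDK1_1 replicate 3 (0.003), IGFBP1 with shPDK1_1 without shCtrl replicate 2 (-0.013) and without shPDK1_1 replicate 2 (-0.086; range over the fits that left out 1 library -0.086 to 0.106), and IGFBP4 between the shRNAs without shPDK1_1 replicate 3 (-0.014; range -0.014 to 0.12).

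The number of genes past the threshold with shPDK1_1, 446, ranged from 245 to 508 when 1 library was left out; it was 270 without shCtrl 1, 282 without shCtrl 2 and 245 without shPDK1_1 replicate 3. The members past it ranged from 4 to 5 in these fits, from 9 to 10 in OSCs, and were 9 with shPDK1_2 and 4 between the shRNAs in each of them. With the longest transcript as length, the summed binding protein level was 446, 848.9, 727.5, 899.5 and 920 CPM per kilobase (non-OSC, OSC, shCtrl, shPDK1_1, shPDK1_2), and IGFBP5 ranked 2 in shCtrl and shPDK1_2.

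Deviations of same-numbered libraries from their condition mean correlated between -0.05 and 0.09. In the 4 comparisons, 4, 2, 0 and 2 of 6 libraries correlated best with their own number. These correlations were small, but with 3 libraries per condition such a check cannot exclude a pairing by replicate number. With the replicate block the genes past the threshold were 9420 (9126 without it) in OSCs and 507 (446) with shPDK1_1. They were 3943 (3812) with shPDK1_2 and 2522 (2374) between the shRNAs, so more passed in each comparison. The members past the threshold were 10, 5, 9 and 4. Depth limited IGFBP1 (35 to 193 counts) and IGF2 in non-OSCs most.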
